A study of Mus musculus with 27 samples.

Results

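The 2 XLF-/- clones of the series were compared with each other. Every junction library of either clone was taken, which gave 6 of the 27 libraries and 37282 of the 193201 junctions, and libraries were matched by the sequencing run given in the read names. Each clone had 1 library in the first shared run and 2 in the second. XLF-/- clone 1 held 10164, 5386 and 5868 junctions in libraries 1, 2 and 3, and XLF-/- clone 2 held 6884, 4610 and 4370, where library 1 is that of the first run.

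Both clones derive from the parental CH12F3 line, a mouse B-cell line that can switch from IgM to IgA. All 6 libraries were made from genomic DNA after 72 h of stimulation with IL-4, αCD40 and TGFβ, with the IgH Imu promoter as the target locus and sonication with AflII blocking. Neither clone carried a second labelled allele or an added agent that the other lacked. Each line is a single clone, so a difference between them is a difference between 2 clones of 1 genotype. The series design calls the libraries biological replicates, and the labels do not say whether they came from separate cultures. The spread between libraries may therefore be partly technical. Loss of XLF itself cannot be read from junction libraries, so the genotype labels were taken as given.

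Class switching exchanges the constant region of an antibody by cutting and rejoining the heavy chain locus. The enzyme AID starts breaks in repetitive switch regions, and classical non-homologous end joining, which XLF assists, links the broken donor region Sμ to an acceptor such as Sα. When that pathway is impaired, ends are joined more often through short stretches of shared bases, called microhomology. Libraries of LAM-HTGTS, a translocation sequencing method that copies DNA linearly from 1 primer, read outward from a fixed stretch of DNA, the bait, next to Sμ and into the DNA joined to it, the prey.

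The bait is shown first, because clone 1 carried a base in it that clone 2 did not. It covered 134 bases of the minus strand at chr12:114664780-114664913 (mm9), and bait positions are counted from 1 at its first base read, 114664913. The line of the whole bait has the variable base in capitals, and the second line has its AGCT motifs in capitals, at positions 68 to 71 and 89 to 92. AGCT is a known preferred target of AID.

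Bait: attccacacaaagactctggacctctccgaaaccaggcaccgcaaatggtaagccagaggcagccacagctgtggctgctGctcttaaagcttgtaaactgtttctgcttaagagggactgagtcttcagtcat
Bait with motifs: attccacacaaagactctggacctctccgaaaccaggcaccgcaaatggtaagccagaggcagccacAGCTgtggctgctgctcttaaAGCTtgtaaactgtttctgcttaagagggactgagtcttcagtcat

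In clone 1 the substitution G81A (G in most reads of the other clones, A in the substituted reads, at bait position 81, mm9 position 114664833) was carried by a large part of the reads that covered it. A was read in 1205 of 2529 reads of clone 1 library 1, in 529 of 1106 of library 2 and in 644 of 1420 of library 3, or 47.6%, 47.8% and 45.4%. In clone 2 it was read in 6 of 1615, 1 of 1095 and 1 of 1035 reads. The highest share in any library of the other clones was 3.13%. It was 1.51% to 3.13% in the libraries of WT and the PAXX-/- clones. In those of the XLF-/-PAXX-/- and Ligase4-/- clones it was at most 0.697%. The stretch from bait position 61 to 91 (chr12:114664823-114664853) is given for both forms as clone 1 reads had it most often, with position 81 in capitals.

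Usual form: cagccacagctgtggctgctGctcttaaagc
Substituted form: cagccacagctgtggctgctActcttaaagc

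Whether the 2 forms were 2 alleles in each cell or came from a mix of cells cannot be told apart from these reads. Joins at the most frequent Sα position, 114500098, are given as examples of single joins. Each line is the sequence read most often for its join, in 5 of 16, 4 of 14, 3 of 11 and 3 of 8 reads, and has 24 bases on each side of the join, with the bases shared by bait and prey in capitals. Their bait ends were positions 72, 54, 92 and 43.

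Join with bait end 72: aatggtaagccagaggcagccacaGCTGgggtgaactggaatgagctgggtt
Join with bait end 54: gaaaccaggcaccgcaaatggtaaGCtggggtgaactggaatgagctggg
Join with bait end 92: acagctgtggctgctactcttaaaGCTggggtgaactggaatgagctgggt
Join with bait end 43: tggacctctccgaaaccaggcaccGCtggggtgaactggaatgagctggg

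The first of these joins was found in 8 reads of clone 1 and 8 of clone 2, and the second in 7 and 7. The join with bait end 92 was found in 8 reads of clone 1 and 3 of clone 2, and the sequence shown has the substituted base of clone 1. The last was found in 4 and 4.

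The clones differed in where the bait was joined. Clone 2 had a lower share of its junctions at Sα and a higher share on other chromosomes. Junctions outside the bait window, which reached from 10 kb before the bait to 10 kb after it, were the denominator. The Sα window was the 20 kb around the densest acceptor stretch (chr12:114489501-114509500). It held 67.0%, 73.8% and 71.1% of these junctions in the libraries of clone 1, and 45.2%, 58.5% and 53.9% in those of clone 2. All clone 2 libraries lay below all clone 1 libraries. The means were 70.6% ± 3.41 and 52.5% ± 6.72 (SD, n = 3 libraries), a difference of -18.1 percentage points (90% interval -28.5 to -8.53) with an exact two-sided permutation p = 0.167 within runs. The difference was -21.8 points in the first run and -16.3 in the second.

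Other chromosomes held 23.1%, 17.7% and 19.9% in clone 1 and 45.5%, 31.8% and 35.8% in clone 2. The libraries of the clones did not overlap here either. The means were 20.2% ± 2.72 and 37.7% ± 7.02 (SD, n = 3), and the difference was 17.4 points (90% interval 8.68 to 27.7, exact permutation p = 0.167), with 22.3 in the first run and 14.99 in the second. In both clones the library of the first run had the highest value. The bait window held 33.0%, 33.3% and 33.3% of all junctions in clone 1 and 27.3%, 30.0% and 27.6% in clone 2, a difference of -4.89 points (90% interval -6.03 to -2.999, exact permutation p = 0.167).

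Exact permutation within runs has 12 arrangements and cannot give a p under 0.167, and over all 20 it cannot give one under 0.1, so no measure could pass 0.05. Intervals of 90% come from inverting the test over these 20. Of 18 measures, 5 did not overlap between the clones (27.8%), each with an exact permutation p = 0.167 and a Benjamini-Hochberg adjusted p of 0.429. In 2 further measures, the direct share at Sα and the share of Sα junctions outside its core, the clones overlapped over all libraries but not within either run, with the same p. The count of measures without overlap over all libraries count was 4 of 18 between the PAXX-/- clones, 3 between the XLF-/-PAXX-/- clones and 3 between the Ligase4-/- clones. Between the PAXX-/- clones, which used the same 2 runs, the other-chromosome share was 10.8 points higher in clone 2, with overlapping libraries. Whether the XLF-/- clones differed more than clones of another genotype was not tested.

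**Figure D1:**
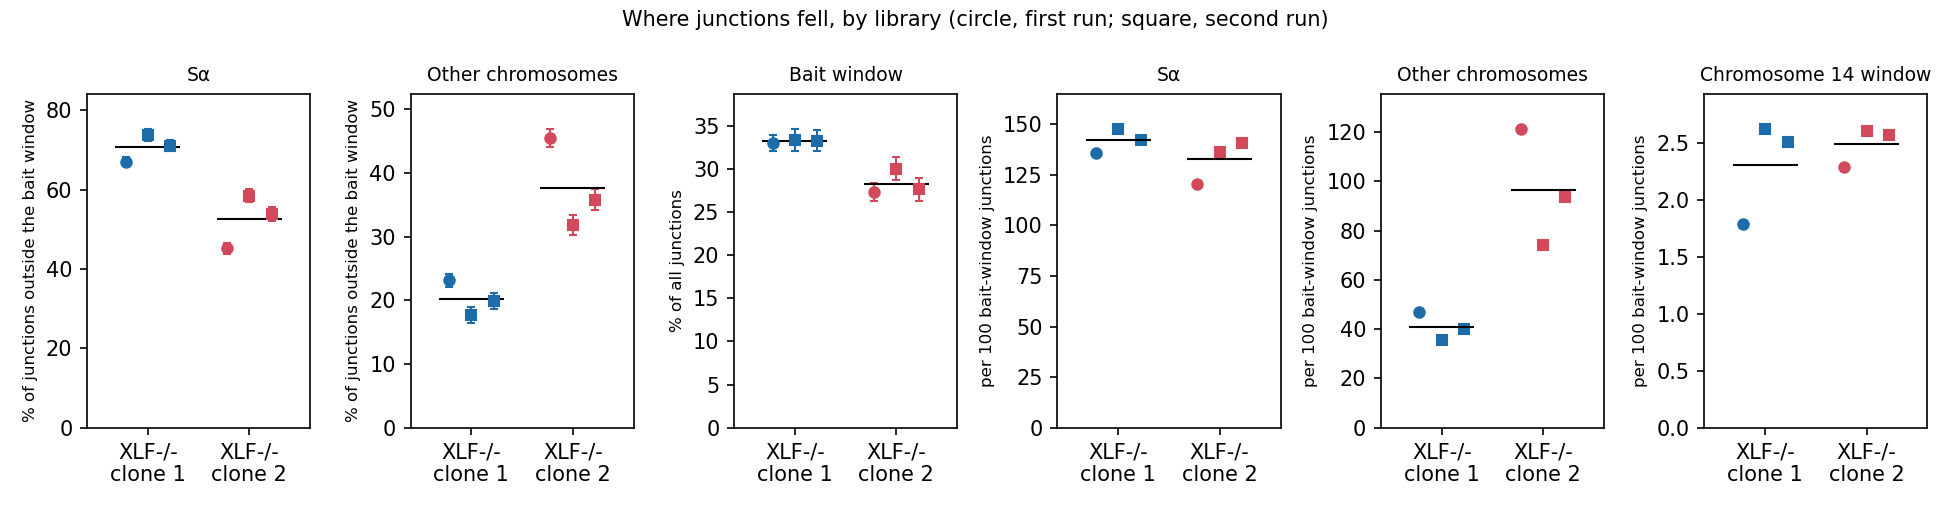
Junctions by place, 1 point per library (circles, the first run; squares, the second run), as a percentage in the left 3 panels, with exact 95% counting intervals, and per 100 bait-window junctions in the right 3; black lines are means of 3 libraries. Sα is lower in clone 2 as a percentage (70.6% to 52.5%) but overlaps per 100 bait-window junctions over all libraries (142 and 133), though not within either run, and other chromosomes are higher in clone 2 on both scales.

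Shares of 1 total move together, so each class was also set against the junctions of the bait window of the same library, a scale added after the shares were seen. Sα junctions then overlapped between the clones over all libraries, but within each run every library of clone 2 was lower. Clone 1 had 136, 148 and 142 of them per 100 bait-window junctions, and clone 2 had 120, 136 and 141. The ratio of the means was 0.934 and the difference -9.40 (90% interval -27.1 to 4.93, exact permutation p = 0.167). Junctions on other chromosomes numbered 46.9, 35.4 and 39.9 per 100 in clone 1 and 121, 74.2 and 93.7 in clone 2, or 40.7 ± 5.80 against 96.3 ± 23.6 (SD, n = 3). This was 2.36-fold higher in clone 2 (2.58-fold in the first run and 2.23-fold in the second), with no overlap and an exact permutation p = 0.167. Junctions elsewhere on chromosome 12 numbered 18.4 ± 1.53 and 24.9 ± 2.18 per 100, 1.35-fold more in clone 2, also without overlap. On this scale the other clones of the series had means of 45.2 to 99.1 other-chromosome junctions per 100, and clone 1 of XLF-/- had the lowest mean of the 9 clones.

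Scattered junctions made up most of the higher value of clone 2 on other chromosomes, 49.6 of the difference of 55.6 per 100 bait-window junctions. A junction was counted as alone when no other junction of the 6 libraries pooled lay in its 10 kb window. Such junctions numbered 36.1, 26.7 and 31.0 per 100 bait-window junctions in clone 1. In clone 2 they numbered 104, 61.0 and 77.7, 2.59-fold more. Their share of other-chromosome junctions was 76.7% ± 1.11 in clone 1 and 83.7% ± 1.90 in clone 2 (SD, n = 3), without overlap. As most were alone in both clones, a higher total would by itself give more of them. Some reads had an unaligned gap of over 20 bases between bait and prey. Such reads gave 30.9% of other-chromosome junctions in clone 2 library 1, against 12.6% and 12.2% in the other libraries of that clone and 12.6%, 25.3% and 17.8% in clone 1. Without such reads the count was 41.0, 26.5 and 32.8 per 100 in clone 1 and 83.7, 64.9 and 82.3 in clone 2, still 2.30-fold higher. Libraries shared few exact junctions on other chromosomes, 0.293% to 1.26% within a clone and 0.0889% to 0.771% between clones.

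The window chr14:32420000-32429999 overlapped between the clones. It was the densest recurrent window outside chromosome 12 and held 60, 47 and 49 junctions in clone 1 and 43, 36 and 31 in clone 2, at 30 to 48 distinct positions per library. This came to 1.79, 2.62 and 2.51 per 100 bait-window junctions in clone 1, against 2.29, 2.60 and 2.57 in clone 2. The libraries overlapped, with a difference of 0.181 (90% interval -0.330 to 0.814, exact permutation p = 0.5). As a share of other-chromosome junctions the window was 5.83% ± 1.83 in clone 1 and 2.71% ± 0.810 in clone 2 (SD, n = 3), without overlap. The window chr8:125950000-125959999 held 9, 4 and 3 junctions in clone 1 and 7, 7 and 5 in clone 2, or 0.268, 0.223 and 0.154 against 0.373, 0.506 and 0.414 per 100, which did not overlap. The adjacent windows chr14:115430000-115439999 and chr14:115440000-115449999 held 11, 0 and 5 and 11, 4 and 2 junctions in clone 1, against 2, 3 and 3 and 3, 0 and 2 in clone 2. The window chr1:20660000-20669999 held 3, 2 and 2 junctions in clone 1 and 16, 2 and 0 in clone 2, where the 16 lay at 3 positions. Genes in these windows are not named, because no annotation of mm9 was used here. In all, 24 measures of the clones were added after seeing the data, and 13 did not overlap between the clones (54.2%). They also cover Sα, gaps, join structure and lengths. Several restate the same other-chromosome junctions, so the 13 are not separate differences.

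Across chromosomes, the rise in clone 2 was broad. The 19 other chromosomes are parts of 1 total, so the differences on them are not independent of each other. That total, the other-chromosome share, had an exact permutation p = 0.167 on the same libraries. limma was fitted to log2(junctions per 1000 outside the bait window + 1) with the run as a covariate, and called 20 of 29 regions at an adjusted p under 0.05 (69%), all higher in clone 2. The libraries of 20 of the 29 did not overlap (69%). The 20 called were the 19 other chromosomes tested and 1 of 10 bins of 20 kb on chromosome 12. Among those called, the libraries overlapped for chromosomes 3 and 17. The bins chr12:114649501-114669500, lower in clone 2, and chr12:114729501-114749500, higher in clone 2, did not overlap but were not called. Chromosome 1 had 12.5 ± 2.53 junctions per 1000 in clone 1 and 29.8 ± 7.53 in clone 2 (SD, n = 3; log2 difference 1.17, SE 0.15, limma adjusted p = 1.31e-09). Chromosome 2 had 12.8 ± 2.73 and 28.5 ± 7.43 (log2 difference 1.09, SE 0.15, limma adjusted p = 7.16e-09). Chromosome 14, with the recurrent window, differed least of the 19, with 24.7 ± 0.959 and 30.5 ± 3.88 (log2 difference 0.28, SE 0.13, limma adjusted p = 0.0467).

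**Figure D2:**
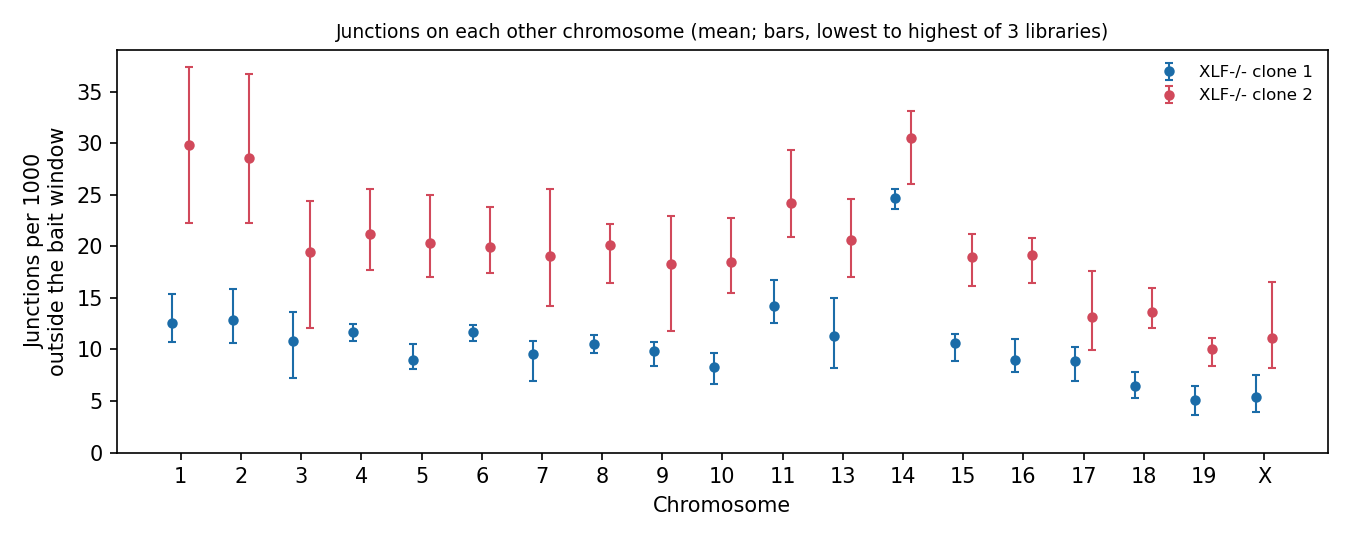
Junctions on each other chromosome per 1000 outside the bait window; points are means and bars run from the lowest to the highest of 3 libraries. Clone 2 is higher on all 19, from a log2 difference of 0.28 on chromosome 14 to 1.17 on chromosome 1.

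A fit per 1000 other-chromosome junctions, added after seeing the data, asked how these junctions were spread once their total was set aside. It called 2 of 19 chromosomes (10.5%). These chromosomes are again parts of 1 total and not independent, and limma draws its variance from all of them. As a share of other-chromosome junctions, the recurrent window on chromosome 14 had an exact permutation p = 0.167 on the same libraries. Chromosome 14 took 123 per 1000 in clone 1 and 81.6 in clone 2 (log2 difference -0.59, SE 0.04, limma adjusted p = 4.55e-15). Per 1000 junctions outside the bait window it was not lower in clone 2 (24.7 in clone 1 and 30.5 in clone 2). Chromosome 1 took 61.7 and 78.5 (log2 difference 0.34, SE 0.11, limma adjusted p = 0.0328). The remaining 17 had log2 differences from -0.33 to 0.28, with a lowest limma adjusted p of 0.161.

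On chromosome 12 the bin that rose was chr12:114589501-114609500, which lies between the bait and Sα. It had 2.00 ± 0.641 junctions per 1000 in clone 1 and 7.05 ± 3.16 in clone 2 (SD, n = 3; log2 difference 1.37, SE 0.27, limma adjusted p = 8.85e-06). Its densest kilobase, from 114602000, held 4 junctions in the 3 libraries of clone 1 and 18 in those of clone 2. The bin chr12:114649501-114669500, taken outside the bait window, had 6.59 per 1000 in clone 1 and 4.38 in clone 2 and did not pass (limma adjusted p = 0.0544). The whole stretch that separates the Sα window from the bait window took 2.14% ± 0.172 in clone 1 and 2.30% ± 0.464 in clone 2 (SD, n = 3), which overlapped (difference 0.162 points, 90% interval -0.561 to 0.639, exact permutation p = 0.5).

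Within Sα, clone 2 had more deletional and fewer inversional junctions. Deletional junctions have the orientation that removes the DNA between donor and acceptor, as productive switching does. Their share at Sα was 84.4%, 85.5% and 84.4% in clone 1 and 85.9%, 89.8% and 89.0% in clone 2. No library overlapped, and clone 2 library 1 was the closest to clone 1. The means were 84.8% ± 0.614 and 88.2% ± 2.04 (SD, n = 3), a difference of 3.42 points (90% interval 0.406 to 5.33, exact permutation p = 0.167), with 1.47 in the first run and 4.39 in the second.

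Clone 2 had fewer inversional junctions both in the core of Sα and on the side of it nearer the bait. The core of Sα, the shortest interval with 90% of its junctions over all clones, spanned 6161 bp (chr12:114496668-114502828). Inversional junctions in the core were 11.02%, 10.7% and 10.8% of all Sα junctions in clone 1 and 10.1%, 7.42% and 8.40% in clone 2, without overlap (difference -2.20 points, 90% interval -3.60 to -0.613, exact permutation p = 0.167). Inversional junctions past the core on the bait side were 3.44%, 3.17% and 3.59% and 2.87%, 1.96% and 1.53% of all Sα junctions, also without overlap (difference -1.28 points, 90% interval -2.07 to -0.300). They were 22.1%, 21.9% and 23.1% of all inversional junctions in clone 1 and 20.4%, 19.2% and 13.8% in clone 2, a difference of -4.57 points (90% interval -9.26 to -1.50, exact permutation p = 0.167). Over all Sα junctions, those on the bait side of the core were 4.96% ± 0.246 in clone 1 and 2.99% ± 0.895 in clone 2 (SD, n = 3), without overlap. Those on the far side were 8.42% ± 0.718 and 9.46% ± 0.837, with overlap over all libraries but higher in clone 2 within each run. The median inversional junction was at 114500671, 114500933 and 114500761 in clone 1 and at 114500008, 114499978 and 114499996 in clone 2, whereas the medians of deletional junctions overlapped (114499280 to 114499346 and 114499117 to 114499330).

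The positional fit over 200 bp bins called 1 of 75 bins (1.33%), and the libraries of 14 did not overlap (18.7%). The bin that passed was deletional, chr12:114500901-114501100, with 27.5 ± 1.82 Sα junctions per 1000 in clone 1 and 18.8 ± 2.43 in clone 2 (SD, n = 3; log2 difference -0.53, SE 0.15, limma adjusted p = 0.0380). It did not pass without the run covariate, or when clone 1 library 1, 2 or 3 or clone 2 library 1 or 3 was left out. In bins of 500 bp, 8 of 42 passed (19%). Of these, 3 inversional bins and 2 deletional bins were lower in clone 2, all between 114500501 and 114503500. The largest difference was in the inversional bin chr12:114501501-114502000, with 10.6 per 1000 against 4.83 (log2 difference -1.02, SE 0.24, limma adjusted p = 0.00144). The other 3 were deletional bins between 114498501 and 114500500 and were higher in clone 2, such as chr12:114500001-114500500 with 107 against 119 per 1000 (log2 difference 0.16, SE 0.04, limma adjusted p = 0.00479).

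**Figure D3:**
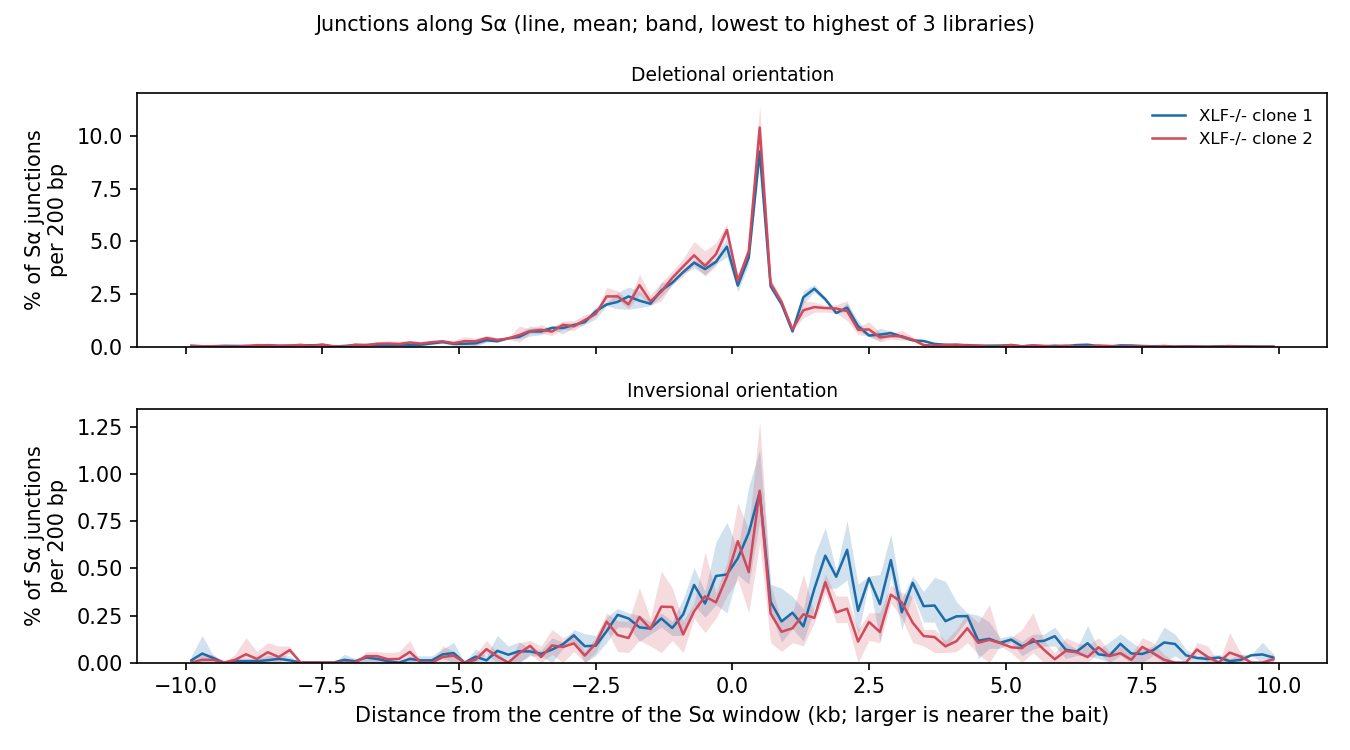
Share of Sα junctions in 200 bp bins against distance from the centre of the Sα window, by orientation; lines are means and bands run from the lowest to the highest of 3 libraries. Deletional profiles lie close together, and the 1 bin called, at about 1.5 kb, is higher in clone 1. Nearer the centre clone 2 is higher, as in the 500 bp deletional bin chr12:114500001-114500500 (107 against 119 per 1000). Inversional junctions of clone 1 exceed those of clone 2 on the bait side.

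Single positions each took a small share of Sα junctions. Position 114500098 took 0.787% ± 0.159 of Sα junctions in clone 1 and 0.930% ± 0.207 in clone 2 (SD, n = 3; exact permutation p = 0.5), and all of its 136 junctions were deletional, with 45 different bait ends. Position 114500087 took 0.448% ± 0.109 and 0.679% ± 0.175 (exact permutation p = 0.167), and the libraries of the clones did not overlap. Position 114500039 took 0.103% ± 0.0135 and 0.185% ± 0.0319 (exact permutation p = 0.167), also without overlap. It held only 21 junctions over the 6 libraries. Positions 114500014 and 114499899 took 0.104% to 0.191% in either clone, with overlap.

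Differences in the structure of Sα joins were small, and most lay within the spread between libraries. Direct joins (no base shared, none inserted) were 6.16%, 6.68% and 6.47% of Sα junctions in clone 1 and 5.74%, 6.20% and 6.22% in clone 2. These overlapped over all libraries, but within each run every library of clone 2 was lower, with a difference of -0.380 points (90% interval -0.940 to 0.0661, exact permutation p = 0.167). Microhomology was found in 74.5%, 77.9% and 76.3% of Sα junctions of clone 1 and in 77.1%, 75.7% and 77.5% of clone 2, a difference of 0.529 points (90% interval -2.19 to 2.98, exact permutation p = 0.833). Insertions were in 17.3% ± 1.95 and 17.2% ± 0.903 (SD, n = 3; difference -0.149, 90% interval -3.04 to 2.67). The mean microhomology was 2.86 ± 0.0419 and 2.89 ± 0.0551 bases long (difference 0.0258, 90% interval -0.0838 to 0.0999). With insertions left out, microhomology was 92.2% ± 0.136 in clone 1 and 92.7% ± 0.336 in clone 2, a small difference without overlap (0.471 points, 90% interval 0.0638 to 0.969).

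Over 20 classes of overlap and insertion length, limma called 0 (0%), with 1 at an unadjusted p under 0.05 and a lowest adjusted p of 0.529, and 1 class did not overlap (5%). The precision of these fits was limited, and changes of 2-fold simulated in the same 20 classes were called in 78% of cases.

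**Figure D4:**
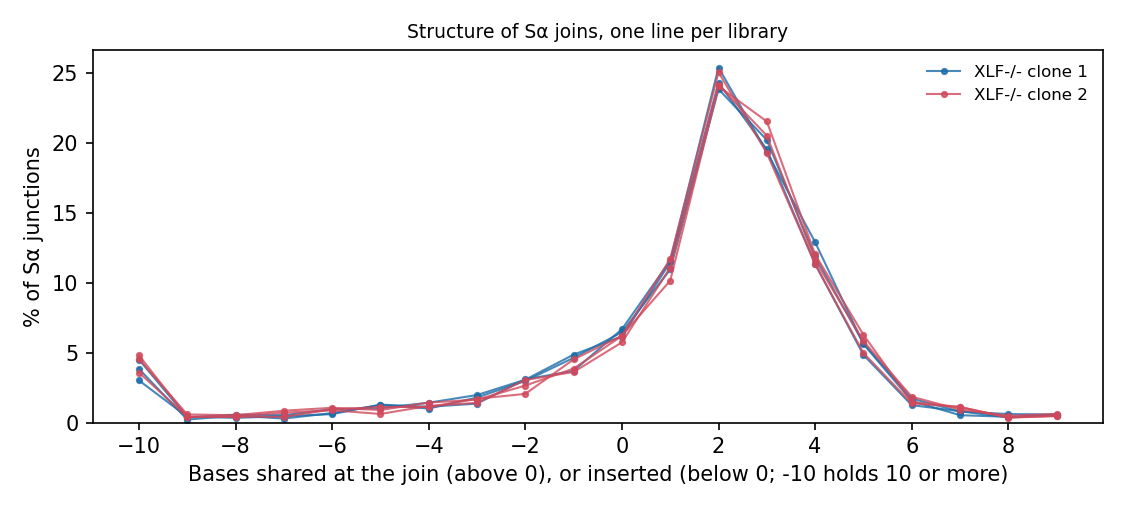
Share of Sα junctions by the number of bases shared by bait and prey (above 0) or inserted between them (below 0), 1 line per library. The 6 lines run close together, with the peak at 2 shared bases in every library.

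The shared bases were drawn from the same short words. GCT was the microhomology of 2.29% ± 0.110 of Sα junctions in clone 1 and 2.52% ± 0.707 in clone 2 (SD, n = 3), CTG of 2.43% ± 0.103 and 2.36% ± 0.319, and AGC of 1.93% ± 0.382 and 1.97% ± 0.183. GGC gave 1.52% ± 0.172 and 1.69% ± 0.342, and GCTG 1.63% ± 0.145 and 1.51% ± 0.224. The joins at position 114500098 printed above include GCTG and GCT. Among inserted sequences of at least 2 bases, AA was in 0.460% ± 0.0439 and 0.480% ± 0.162 of Sα junctions and TT in 0.431% ± 0.187 and 0.276% ± 0.0709. TC was in 0.143% ± 0.0416 and 0.292% ± 0.0265, the only one of the 5 most frequent insertions whose libraries did not overlap (exact permutation p = 0.167). This rested on only 31 junctions over the 6 libraries. CT gave 0.343% and 0.262%, and TG 0.208% and 0.205%.

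A bait end is the last base of the bait alignment in a read, and the site of the break itself was not read. Position 72, next to the AGCT motif at 68 to 71, was the end of 5.64% ± 0.129 of Sα joins in clone 1 and 5.50% ± 0.431 in clone 2 (SD, n = 3). Position 61 followed with 3.51% ± 0.508 and 4.04% ± 0.160, and position 71 with 2.93% ± 0.349 and 3.004% ± 0.517. Positions 49 and 38 each took 2.78% to 3.06% in either clone. Bait ends within 2 bases of an AGCT motif were 26.6% ± 0.0713 of Sα joins in clone 1 and 25.0% ± 2.07 in clone 2, with overlap (difference -1.68 points, 90% interval -3.33 to 0.738). Over 75 bait ends limma called 0 (0%), with 5 at an unadjusted p under 0.05 and a lowest adjusted p of 0.607, and 9 did not overlap (12%). The mean bait length at Sα was 64.7 ± 1.05 and 65.1 ± 2.34 bases.

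In the bait window, where a break is rejoined close to where it arose, structures were also close. Direct joins were 7.17% ± 0.614 in clone 1 and 7.80% ± 0.179 in clone 2 (SD, n = 3; difference 0.630 points, 90% interval -0.263 to 1.25), and microhomology was in 70.3% ± 2.16 and 71.8% ± 0.837 (difference 1.56, 90% interval -0.803 to 4.83). The mean microhomology there was 2.86 ± 0.0194 and 2.92 ± 0.0292 bases, which did not overlap (difference 0.0585, 90% interval 0.0172 to 0.104). Deletional junctions over 3 kb from the bait are here called long resection. The name stands for distance only, and whether ends were resected was not tested. The denominator was the deletional junctions that lay on the Sα side of the bait in its window. Long resection was 19.9%, 19.7% and 19.6% of these in clone 1 and 23.0%, 18.2% and 19.4% in clone 2, with overlap.

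On other chromosomes, direct joins made up 15.7%, 11.8% and 12.1% in clone 1 and 14.7%, 16.6% and 20.3% in clone 2, with overlap (difference 4.01 points, 90% interval -1.01 to 8.53, exact permutation p = 0.333). The difference was -1.01 points in the first run and 6.51 in the second. Without reads with gaps over 20 bases they made up 17.96%, 15.8% and 14.7% in clone 1 and 21.2%, 18.95% and 23.1% in clone 2, without overlap (difference 4.97, 90% interval 0.988 to 8.45, exact permutation p = 0.167). Direct joins were a larger share on other chromosomes than at Sα in 6 of 6 libraries.

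Within clone 1, the junctions of reads with the substituted base and of reads with the usual base fell in different places. Reads were used when the bait alignment went on for at least 10 bases past position 81, which left 1076 substituted and 1159 usual reads in library 1, 452 and 499 in library 2, and 562 and 685 in library 3. Both kinds of read came from the same libraries, so run and library preparation were shared. A sign test over 3 libraries cannot give an exact p under 0.25, and every difference called uniform below reached that value and no lower. The comparison, over 16 measures, was chosen after seeing the data.

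Sα took 75.8%, 86.1% and 81.5% of the junctions outside the bait window among substituted reads of clone 1, and 57.6%, 69.6% and 67.3% among usual reads. The substituted reads were higher in each of the 3 libraries, by 16.3 points on average (14.1 to 18.2). Clone 2 gave 38.9%, 61.5% and 61.5% over the same stretch of bait. Other chromosomes took 15.9%, 8.20% and 11.7% among substituted reads and 31.0%, 22.9% and 22.9% among usual reads, a uniform difference of -13.7 points, against 52.2%, 27.5% and 30.3% in clone 2. Usual reads of clone 1 and reads of clone 2 overlapped in both shares over all libraries, but within each run clone 2 was lower at Sα and higher on other chromosomes (difference in the other-chromosome share 11.1 points, 90% interval -3.55 to 29.4, exact permutation p = 0.167). In clone 2 the library of the first run stood apart from the other 2 on both measures.

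The bait window held 28.2%, 29.9% and 31.9% of substituted reads, 40.2%, 41.3% and 40.1% of usual reads, and 26.0%, 27.8% and 31.0% of reads of clone 2. Per 100 bait-window junctions, Sα junctions numbered 193, 202 and 174 in substituted reads, 85.6, 99.03 and 100.4 in usual reads and 111, 160 and 137 in clone 2. Other-chromosome junctions per 100 bait-window junctions were 28.3 ± 11.02 in substituted and 37.6 ± 7.43 in usual reads (SD, n = 3), lower in substituted reads in 3 of 3 libraries, and 95.8 ± 45.8 in clone 2. On this scale neither form of clone 1 overlapped clone 2.

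The forms also differed inside the bait window. Long resection, beyond 3 kb, was found in 4 of 199, 1 of 83 and 1 of 123 deletional junctions on the Sα side of the bait in substituted reads, or 2.01%, 1.2% and 0.813%. In usual reads it was found in 98 of 301, 54 of 149 and 60 of 195, or 32.6%, 36.2% and 30.8%. In clone 2 it was found in 19.3%, 21.9% and 22.8%, between the 2 forms of clone 1 and apart from both. By distance, 71.4% ± 5.97 of these deletional junctions of substituted reads lay within the first kilobase and 26.5% ± 5.96 in the next, against 34.8% ± 5.51 and 20.6% ± 8.88 in usual reads (SD, n = 3 libraries). From 2 to 3 kb the shares were 0.710% ± 0.833 and 11.3% ± 2.69, and from 4 to 5 kb 0 of 405 substituted and 53 of 645 usual junctions were found. A count of 0 of 405 allows a share of up to 0.741%.

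Orientation at Sα differed in the same reads. Deletional junctions were 88.9%, 91.9% and 91.3% in substituted reads, 75.7%, 81.4% and 78.6% in usual reads, and 90.02%, 91.96% and 91.2% in clone 2. The substituted reads were higher in 3 of 3 libraries, by 12.2 points on average, and overlapped clone 2. Inversional junctions past the core were 4 of 65, 1 of 22 and 2 of 27 in substituted reads and 30 of 97, 9 of 38 and 21 of 59 in usual reads.

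The recurrent window on chromosome 14 was read almost only with the usual base. It took 10 of 693, 6 of 293 and 10 of 410 junctions outside the bait window in usual reads, or 1.44%, 2.05% and 2.44%. In substituted reads it took 0 of 773, 1 of 317 and 0 of 383, with upper exact 95% bounds of 0.476%, 1.74% and 0.959%. Clone 2 had 0.777%, 0.727% and 0.816%. Without the window, the other-chromosome share was still lower in substituted reads, at 11.8% ± 4.01 against 23.6% ± 5.16 (SD, n = 3).

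The structure of Sα joins was close in the 2 forms. Direct joins were 6.20% ± 0.220 in substituted and 5.91% ± 0.848 in usual reads (SD, n = 3; difference 0.296 points, -0.794 to 1.34 over libraries). Microhomology was in 77.0% ± 1.72 and 77.7% ± 0.688 (difference -0.702, -1.86 to 0.447), and insertions in 16.8% ± 1.90 and 16.4% ± 0.257. A substituted base near the end of the bait could be read as an insertion, and 2, 2 and 1 Sα insertions in the libraries of clone 1 equalled the continued substituted bait, against 0 in each library of clone 2.

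**Figure D5:**
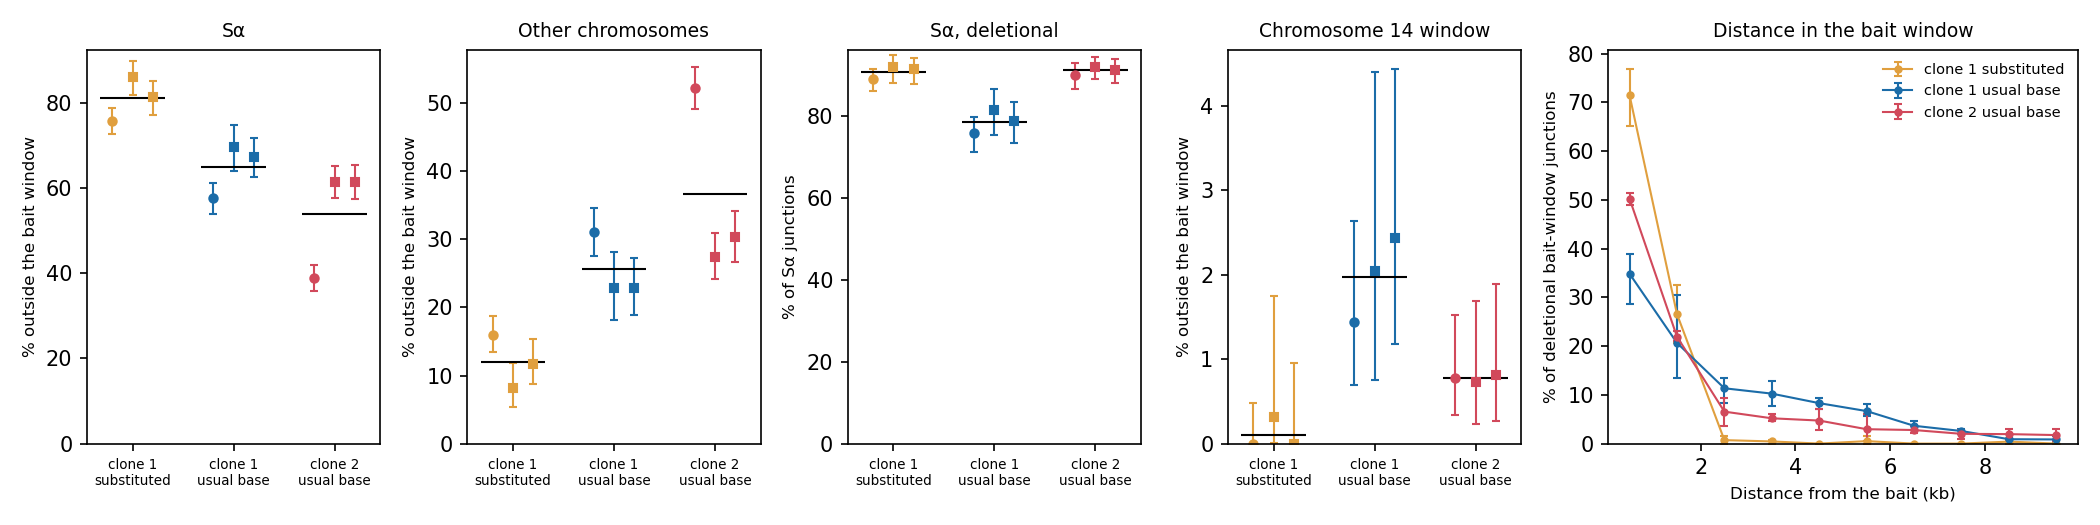
Reads of clone 1 with the substituted or the usual base at bait position 81, and reads of clone 2 with the usual base; points are libraries (circles, the first run; squares, the second run) with exact 95% counting intervals, and the right panel gives means with bars from the lowest to the highest library. Substituted reads have more Sα junctions (81.1% against 64.8%), fewer on other chromosomes and in the chromosome 14 window, and almost none beyond 2 kb from the bait.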

How the data were processed

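The deposited tables have a line for each LAM-HTGTS junction and a table for each clone. The authors aligned reads with Bowtie2 and used mm9, per the submitters' processing notes, and what else they did is not given in the sources used here. A library column told libraries apart but not by replicate number, so they were numbered by name only. Overlap counted the bases of a read that lie in both alignments (above 0 microhomology, 0 direct, below 0 insertion). Clone differences were weighted over the 2 shared runs and tested by exact two-sided permutation. limma 3.58.1 (R 4.3.3) was fitted with a run covariate and Benjamini-Hochberg adjustment to features with a mean of at least 5 junctions, with a pseudocount of 1 per 1000. On simulated data, changes of 2-fold were called in 52.3% of Sα bins, 71.6% of bait ends, 78% of structure classes and 80% of regions. Named features were those past an adjusted p of 0.05, the 5 most frequent Sα positions, bait ends, microhomologies of at least 3 bases and insertions of at least 2, up to 5 recurrent 10 kb windows in at least 4 libraries, and bait bases replaced in at least 2% of reads of every library of a clone. The members, lists and tests were chosen with earlier results of these data known. Counting intervals are exact Clopper-Pearson 95% intervals, and limits for a count of 0 use 3 counts; both cover counting error only. Lines repeating another junction were 0.499% to 1.27% of a library. Versions were scipy 1.17.1, pandas 2.3.3, numpy 2.4.6 and Python 3.11.15. Alternatives included left-out libraries, collapsed repeats, other windows, bins, filters and pseudocounts.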

Additional observations from a re-analysis of the deposited data

Results flagged for a closer look

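For several measures, every library of the second run lay on one side of the library of the first run in clone 1 and on the opposite side in clone 2, with 1 library of the first run and 2 of the second in each clone. These were picked from the 18 measures and the 24 added after seeing the data. With so few libraries per run, the spread between libraries alone can often give such a pattern. The difference between the clones in this respect was not tested. Second minus first run, the bait length at Sα was -1.62 bases in clone 1 and 3.87 in clone 2, and the share of Sα joins with bait ends near an AGCT motif was -0.0901 and 2.38 points. The direct share in the bait window was 0.731 and -0.202 points. On other chromosomes, the direct share was -3.76 and 3.76 points, the microhomology share -5.13 and 12.6, and the insertion share 8.89 and -16.4. The share of other-chromosome junctions with gaps over 20 bases was 8.94 and -18.5 points, and their number per 100 bait-window junctions 2.11 and -27.0. The prey length on other chromosomes was -31.7 and 37.4 bases. Clone 2 library 1, the only library of that clone in the first run, had the highest gap share on other chromosomes of the 6 libraries.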

How the results depend on the processing

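No paired analysis was possible because the library names do not show which replicate number each library was; clones were matched by run instead, and the bait forms within libraries. The 5 non-overlapping measures, the counts of Sα and of other-chromosome junctions per 100 bait-window junctions and the 6 comparisons of the bait forms that were recomputed kept their direction under every alternative they were run under. The other counts per 100 were not recomputed under the alternatives. Left-out libraries gave -19.9 to -16.3 points for the Sα share and 14.99 to 19.3 for the other-chromosome share. Several other measures changed sign. In the second run alone these were the microhomology share (-0.499), insertion share (0.861) and microhomology length (-0.0027) at Sα, long resection (-0.824) and the microhomology share on other chromosomes (3.88). In the first run alone they were the between-windows share (-0.292), bait length (-3.25) and the direct share on other chromosomes (-1.01). The insertion share was 0.182 among bait ends before the substituted position. With a library left out, values ranged from -0.499 to 1.33 for the microhomology share, -0.955 to 0.861 for the insertion share and -0.0027 to 0.0633 bases for microhomology length. Long resection ranged from -0.824 to 1.21, bait length from -0.496 to 2.25 and the microhomology share on other chromosomes from -5.74 to 3.88. Sα bins past the threshold numbered 0 without the run covariate, 0 without a filter on low counts, 3 with a mean of at least 10 junctions, 8 with 500 bp bins and 0 to 1 with a library left out. Regions numbered 18 to 20 with a library left out, and 2 per 1000 other-chromosome junctions. The causes were not tested. With 3 libraries a clone, no exact permutation could pass 0.05.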
